A study of Mus musculus with 43 samples.

Results

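The transcripts of 9 genes that mark glucocorticoid signalling and metal buffering were followed across 43 retinal RNA-seq libraries: the glucocorticoid receptor gene Nr3c1, the glucocorticoid-induced genes Fkbp5, Tsc22d3, Sgk1, Zbtb16 and Pdk4, and the metallothionein genes Mt1, Mt2 and Mt3. The 9 genes were picked by symbol from the 54532 genes of the deposited count table, and all 9 passed the low-count filter that kept 18628 genes. The libraries came from lasered retinas of male and female C57BL/6J mice, which received a laser-induced choroidal neovascularization (CNV) lesion at 9 weeks of age and were collected at 3, 7 or 14 days post-laser (dpl). The control groups had the lesion only. The SCFA groups drank a mixture of short-chain fatty acids, given in the labels as 67.5 mM sodium acetate, 40 mM sodium propionate and 25 mM sodium butyrate, from before the lesion until collection. Each library was a pool of 2 retinas from 2 animals, and the 12 groups of sex, treatment and day held 3 to 5 libraries. No group without a lesion was analysed here, so every comparison lies within injured retinas, and a p-value measures the spread between these pools.

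Glucocorticoids act through the receptor encoded by Nr3c1, which waits in the cytoplasm with chaperones such as Hsp90 and the co-chaperones FKBP5 and FKBP4, enters the nucleus when it binds hormone, and binds response elements of its target genes. Fkbp5 is itself induced by the receptor and lowers its hormone affinity. Tsc22d3 encodes the anti-inflammatory protein GILZ, Sgk1 a serum- and glucocorticoid-regulated kinase, Zbtb16 a zinc-finger transcription factor, and Pdk4 a kinase that shuts down pyruvate dehydrogenase during fasting. Metallothioneins are small cysteine-rich proteins that bind zinc and copper. Mt1 and Mt2 are induced by metals through the transcription factor MTF1 and by glucocorticoids, whereas Mt3 is the neural form and responds little to either. In the retina, glucocorticoids are used against inflammation and oedema, and Müller glia are a main cell type in which the receptor is found.

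The promoters of the metallothioneins are shown because Mt1 and Mt2 are induced both by metals and by glucocorticoids. RefSeq windows of GRCm38.p6, from 250 bases before to 50 bases after each annotated start, were available for 7 of the 9 genes, and were searched on both strands for a metal response element core, TGCACNC or TGCGCNC, for a relaxed glucocorticoid response element, ACANNNTGT, and for the full palindrome that contains it, AGAACA followed by 3 bases and TGTTCT. A match of letters is a description and not a shown binding site. The lines give the 250 upstream bases on the gene's strand, with matches in capitals: metal response element cores in Mt1 and Mt2, the relaxed element at base -92 of Mt1, and the full palindrome in Sgk1. The capitals GTGTGCA in Mt2 are a core read on the other strand, and the Mt3 line has no match.
Mt1, chr8:94178839-94179088, plus strand: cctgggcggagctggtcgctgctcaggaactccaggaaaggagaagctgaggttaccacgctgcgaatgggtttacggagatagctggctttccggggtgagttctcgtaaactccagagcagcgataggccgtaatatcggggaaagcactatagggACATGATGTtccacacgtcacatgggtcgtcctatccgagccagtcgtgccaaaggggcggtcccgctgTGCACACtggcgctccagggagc
Mt2, chr8:94172368-94172617, plus strand: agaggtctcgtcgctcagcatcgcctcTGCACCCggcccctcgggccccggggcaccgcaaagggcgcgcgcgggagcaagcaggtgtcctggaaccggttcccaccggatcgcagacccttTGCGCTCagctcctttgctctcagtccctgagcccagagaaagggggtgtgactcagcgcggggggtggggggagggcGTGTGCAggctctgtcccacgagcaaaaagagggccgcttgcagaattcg
Mt3, chr8:94152357-94152606, plus strand: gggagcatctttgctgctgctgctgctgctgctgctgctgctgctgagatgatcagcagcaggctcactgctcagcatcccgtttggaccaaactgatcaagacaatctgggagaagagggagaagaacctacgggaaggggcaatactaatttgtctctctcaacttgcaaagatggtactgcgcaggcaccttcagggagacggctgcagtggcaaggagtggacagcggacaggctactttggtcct
Sgk1, chr10:21993640-21993889, plus strand: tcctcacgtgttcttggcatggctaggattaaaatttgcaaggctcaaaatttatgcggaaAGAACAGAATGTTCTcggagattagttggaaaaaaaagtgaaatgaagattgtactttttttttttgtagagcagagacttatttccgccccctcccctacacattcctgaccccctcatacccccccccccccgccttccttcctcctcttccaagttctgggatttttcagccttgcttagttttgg

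Over the whole windows, Mt2 held 4 metal response element cores, Mt1 held 3, and Mt3 held 1, which lies at base 28 after the start. At least 1 core was found in 25.7% of the 32851 promoter windows of the genome, and 3 or more in 1.97%. The relaxed glucocorticoid element was present in 6.85% of windows. It matched Mt1 once and 2 of the 6 alternative Sgk1 windows, 1 of them within the palindrome. The full palindrome occurred in 3 windows of the genome (0.00913%), and the Sgk1 start printed above is in that set. No glucocorticoid element matched in the windows of Fkbp5, Tsc22d3, Pdk4, Mt2 or Mt3, which says only that these letters are not in these 300 bases. In the GENCODE M21 annotation of mm10, Mt3 (ENSMUSG00000031760, chr8:94152607-94154146), Mt2 (ENSMUSG00000031762, chr8:94172664-94173568) and Mt1 (ENSMUSG00000031765, chr8:94179082-94180327) lie in this order on the plus strand. Sgk1 (ENSMUSG00000019970, chr10:21882184-21999903) is on the plus strand as well. Nr3c1 (ENSMUSG00000024431, chr18:39410545-39519421), Fkbp5 (ENSMUSG00000024222, chr17:28399094-28517527), Tsc22d3 (ENSMUSG00000031431, chrX:140539528-140600659), Zbtb16 (ENSMUSG00000066687, chr9:48654297-48836222) and Pdk4 (ENSMUSG00000019577, chr6:5483351-5496309) are on the minus strand.

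The genes differed widely in level. Sgk1 was the most abundant in CPM, counts per library size after TMM adjustment, with a median of 457 CPM over the 43 libraries and a range of 347 to 760 CPM. Mt1 had a median of 159 CPM, Nr3c1 of 69.9 CPM, Tsc22d3 of 53.2 CPM, Mt3 of 39.6 CPM and Fkbp5 of 33.0 CPM. The rare genes were Zbtb16 at 2.70 CPM, Mt2 at 0.851 CPM and Pdk4 at 0.554 CPM. For Mt2 this was a median of 15 counts a library and for Pdk4 of 10 counts, so counting error alone limits what can be seen for both. Per kilobase of annotated exon the order changed, with Mt1 at 128 CPM per kilobase, Sgk1 at 93.2, Mt3 at 37.2, Tsc22d3 at 12.3, Nr3c1 at 9.10, Fkbp5 at 3.49, Mt2 at 1.45, Zbtb16 at 0.510 and Pdk4 at 0.158. Mt1 and Mt2 are close paralogs, and how reads that match both were counted is not given in the sources used here, so the split between them is uncertain.

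Library totals ran from 14826957 to 21507527 counts. Rod transcripts were abundant in every library, with 45540 to 95430 CPM summed over 5 rod markers. The deposited columns pass through the groups once (31 libraries) and then again (12 libraries), and this column run was kept as a covariate. Both extremes of the rod sum lay in males with SCFA at 7 dpl, where replicates 1 and 3 had 55370 and 45540 CPM and replicate 2 had 95430 CPM, against 69630 to 72310 CPM in their controls. Replicates 1 and 3 also had the highest shares of mitochondrial mRNA there (13.8% and 14.8% of counts, controls 5.60% to 6.14%), and results that rest on them are given with and without both, an alternative chosen after seeing the data. Mitochondrial mRNA took 4.71% to 14.8% of counts in the first run and 2.50% to 4.57% in the second. The library labelled female control 7 dpl replicate 2 held the Y-linked transcript Ddx3y at 16.0 CPM, where the other female libraries had 0 and males 42.8 to 123 CPM, and it was left out of the fit, which leaves 2 libraries in that group. The library female SCFA 3 dpl replicate 2 had 206300 CPM summed over 5 lens markers, against at most 601 CPM elsewhere. Without it no member passed in the comparison of females at 3 dpl, as with it, and the same 3 members passed over all groups.

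Nr3c1, the receptor itself, carried the main difference with SCFA. In males at 7 dpl the 3 control libraries had 61.1, 45.7 and 40.3 CPM, and the 5 SCFA libraries had 97.2, 80.8, 87.2, 76.6 and 68.5 CPM. Every SCFA library lay above every control library. The rise was 0.73 ± 0.15 (SE) on the log2 scale, a fold of 1.66 (adjusted p = 0.000918, edgeR). It was the only member of 9 that passed the threshold of adjusted p under 0.1 here, where 24.1% of all tested genes passed, which for 9 genes is a smaller share of members than of genes at large. Without the rod-poor SCFA replicates 1 and 3, which had the highest Nr3c1 levels of the group, the rise was 0.57 ± 0.16 and still passed (adjusted p = 0.0609, edgeR), while the share of all genes that passed fell from 24.1% to 4.22%. The part of rod content and mitochondrial share in the difference was not tested. Leaving out each of the 8 libraries in turn kept the call, with log2 differences of 0.61 to 0.92.

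In males at 14 dpl Nr3c1 stood at 58.0, 46.9 and 51.2 CPM in controls and at 70.5, 71.4 and 68.4 CPM with SCFA. Again the groups did not overlap, and the SCFA libraries lay close together. The log2 difference was 0.44 ± 0.16 (adjusted p = 0.0872), and 1 of 9 members passed against 11.4% of all genes. The call was lost without any single library: leaving out any 1 of the 6 raised the adjusted p to between 0.119 and 0.296, and adding the left-out female library to the fit gave 0.132. In males at 3 dpl the values were 53.3, 51.7, 86.5 and 82.4 CPM in controls and 64.3, 76.2 and 66.3 CPM with SCFA. The control libraries split by column run, the high pair being of the second run, and the groups overlapped, with a log2 difference of 0.01 ± 0.15. No member passed in males at 3 dpl (adjusted p from 0.122 to 0.990, edgeR), where 0.0913% of all genes did.

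**Figure D1:**
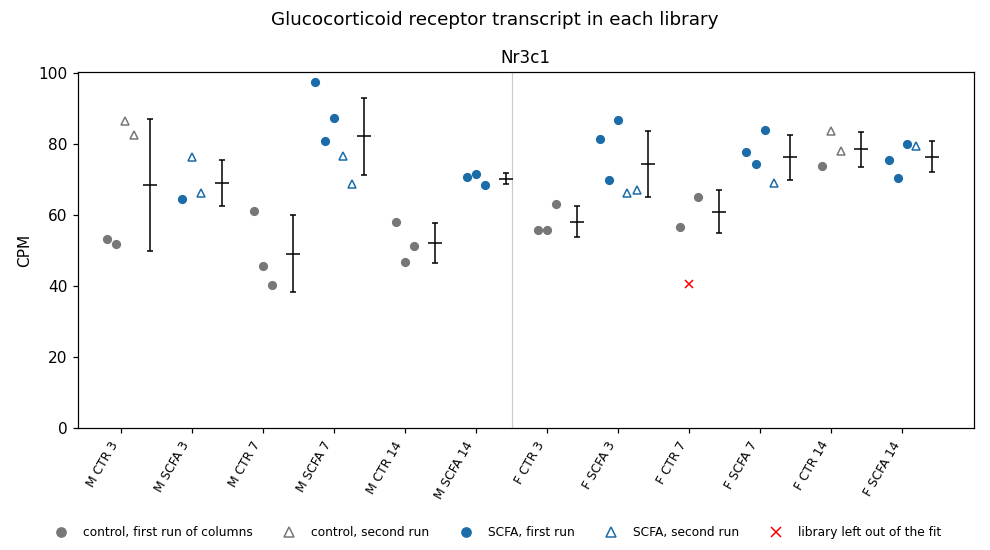
Nr3c1 level in CPM (vertical axis, from 0) in each of the 43 libraries, by group (M, male; F, female; CTR, control; the number is dpl). Filled circles are first-run and open triangles second-run libraries, black bars give mean ± SD, and the red cross is the library left out of the fit. The SCFA libraries of males at 7 and 14 dpl all lie above their controls.

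In females Nr3c1 went the same way at 3 and 7 dpl but did not pass the test. At 3 dpl the controls had 55.7, 55.7 and 63.1 CPM, and SCFA 81.2, 69.9, 86.8, 66.0 and 67.1 CPM, with no overlap and a log2 difference of 0.33 ± 0.14 (adjusted p = 0.165). The 3 pairs of same-numbered libraries had residual correlations of 0.157, 0.117 and 0.133 there, and pairs with different numbers ran from -0.272 to 0.217. Over all sets the mean of same-numbered pairs was 0.016, so the numbers give no ground for pairing. In a fit blocked on replicate number Nr3c1 passed, at 0.38 (adjusted p = 0.0746). At 7 dpl the 2 controls had 56.7 and 65.1 CPM and the SCFA libraries 77.6, 74.4, 83.9 and 68.9 CPM, a log2 difference of 0.31 ± 0.17 (adjusted p = 0.594). The library left out had 40.6 CPM. At 14 dpl both groups were high, with 73.7, 83.6 and 78.0 CPM in controls and 75.5, 70.4, 79.8 and 79.4 CPM with SCFA, and the log2 difference was -0.02 ± 0.15. Among the 9 members none passed in females at 3, 7 or 14 dpl by edgeR (0 also by DESeq2, which gave no adjusted p for Nr3c1 at 7 dpl), against 10.2% of all genes at 3 dpl (1.11% without the lens-rich library), 0.0% at 7 dpl and 0.0% at 14 dpl. At an unadjusted p under 0.05 there was 1 member at 3 dpl, 0 at 7 dpl and 2 at 14 dpl. In the first run of columns alone Nr3c1 and Fkbp5 passed in females at 3 dpl, with log2 differences of 0.44 (adjusted p = 0.0240) and -0.49 (adjusted p = 0.0875).

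Ordered by group median, Nr3c1 was lowest in male controls at 7 dpl (45.7 CPM) and at 14 dpl (51.2 CPM), followed by female controls at 3 dpl (55.7 CPM) and at 7 dpl (60.9 CPM). Female controls at 14 dpl (78.0 CPM) and males with SCFA at 7 dpl (80.8 CPM) were highest. The ranges of all 11 pairs of neighbours in this order overlapped. Among controls Nr3c1 differed by sex at 14 dpl, where males had a mean of 52.0 ± 5.60 CPM (SD, n = 3) and females of 78.4 ± 4.98 CPM (SD, n = 3) without overlap, a log2 difference of -0.57 ± 0.17 (adjusted p = 0.0524). Nr3c1 was the 1 member of 9 that passed there, against 7.64% of all genes. Leaving out 1 library at a time kept the call in 2 of 6 fits (adjusted p from 0.0692 to 0.213). It was lost without male control replicate 2 or 3 or female control replicate 1 or 2. Of the 3 female libraries 2 are of the second run and all male ones of the first, and in the first run alone, with 1 female library, the difference was -0.50 (adjusted p = 0.156).

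The sexes were also compared in their response, as the difference of the 2 SCFA effects at each day. For Nr3c1 the male response minus the female response was -0.32 ± 0.20 at 3 dpl, 0.42 ± 0.22 at 7 dpl and 0.46 ± 0.22 at 14 dpl (adjusted p = 0.470, 0.706 and 0.394). So a sex difference in the Nr3c1 response was not shown, although calls at single days were made in males only. Of the 9 members 0 passed at each day in edgeR, against 0.0%, 0.0161% and 0.0% of all genes at 3, 7 and 14 dpl. At an unadjusted p under 0.05 there was 1 member at 3 dpl, 0 at 7 dpl and 1 at 14 dpl, and DESeq2 called 1, 0 and 0.

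Over both sexes and the 3 days together, the mean SCFA effect was a rise of Nr3c1 and a fall of Fkbp5 and Mt2. Nr3c1 rose by 0.30 ± 0.06 on the log2 scale (adjusted p = 0.00057), being positive in 5 of the 6 comparisons of sex and day. Fkbp5 fell by 0.19 ± 0.08 (adjusted p = 0.0597) and Mt2 fell by 0.47 ± 0.16 (adjusted p = 0.0280), each negative in 5 of 6. The receptor and its co-chaperone thus moved in opposite directions, by small amounts. Of the 9 members 3 passed here and 31.9% of all genes did, a like share. Nr3c1 and Mt2 passed whichever of the 42 libraries was left out. Fkbp5 did not pass without male SCFA 14 dpl replicate 1 or 3, male SCFA 3 dpl replicate 1 or female control 7 dpl replicate 1 (adjusted p up to 0.148), nor with all 42 libraries when the column run was left out of the fit (adjusted p = 0.173), when a GC trend was removed (adjusted p = 0.128) or at a threshold of 0.05. Mt2 did not pass without the low-count filter (adjusted p = 0.112). Without the 2 rod-poor male libraries these 3 passed and Zbtb16 did as well (-0.47, adjusted p = 0.0616), against 28.8% of all genes. Tsc22d3 and Sgk1 had log2 differences of -0.03 ± 0.06 and -0.13 ± 0.06, Mt1 of -0.16 ± 0.08, Mt3 of -0.13 ± 0.09, Zbtb16 of -0.38 ± 0.18 and Pdk4 of 0.17 ± 0.20, and none of these passed (adjusted p from 0.126 to 0.749).

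**Figure D2:**
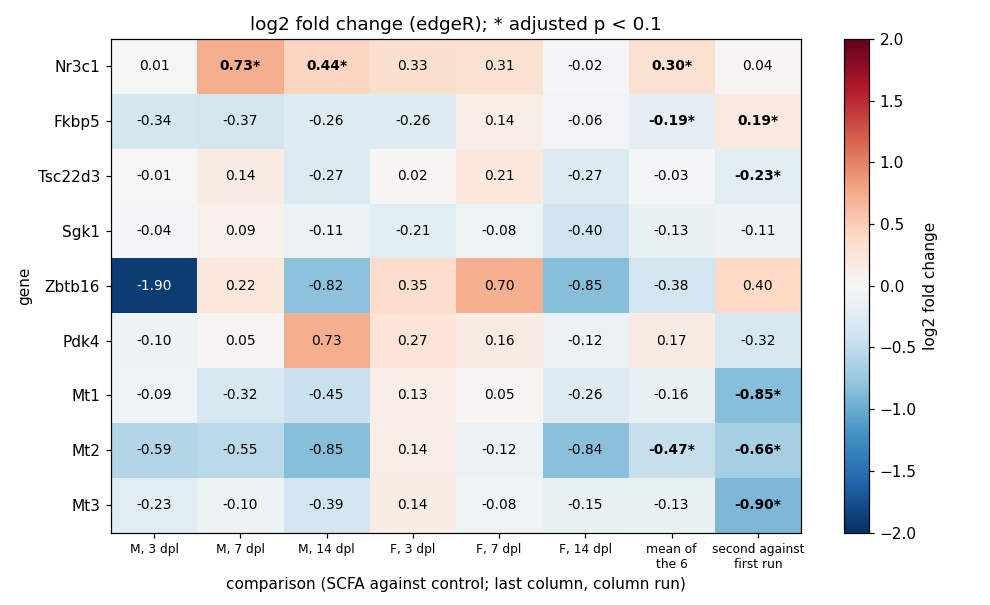
Log2 fold changes of the 9 genes (rows) for SCFA against control in males (M) and females (F) at each dpl, for the mean of these 6 comparisons, and for the second against the first run of columns. Colour and number give the log2 fold change, and an asterisk marks an adjusted p under 0.1. Nr3c1 is marked in males at 7 and 14 dpl and in the mean, and the 3 metallothioneins are marked for the column run.

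Markers of Müller glia moved with Nr3c1 in males at 7 dpl. Their sum over 6 markers was 3266 to 4162 CPM in the controls and 4483 to 8700 CPM with SCFA, without overlap. Of the 6 markers 3 rose, where 24.1% of all genes passed in either direction. These were Glul, the glutamine synthetase (log2 1.02 ± 0.19), Aqp4, a water channel (0.84 ± 0.20), and Rlbp1, a retinoid carrier (0.90 ± 0.21). The 2 rod-poor libraries had the highest sums, 7455 and 8700 CPM, and without them the SCFA libraries still lay above the controls, at 4483 to 5366 CPM. Without them Glul alone of the 6 passed (0.65, adjusted p = 0.0607), where 4.22% of all genes did. At 14 dpl in males the same sum was 4475 to 4577 CPM in controls and 3916 to 4164 CPM with SCFA, the opposite order, while Nr3c1 was higher with SCFA. In bulk tissue a change in the number of cells and a change in RNA per cell cannot be told apart. The part of the glial markers in the Nr3c1 difference was not tested. Removing a trend over GC content, an alternative chosen after seeing the data, lowered the Nr3c1 difference in males from 0.73 to 0.51 at 7 dpl, where it still passed (adjusted p = 0.00674), and from 0.44 to 0.28 at 14 dpl, where it did not (adjusted p = 0.218).

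**Figure D3:**
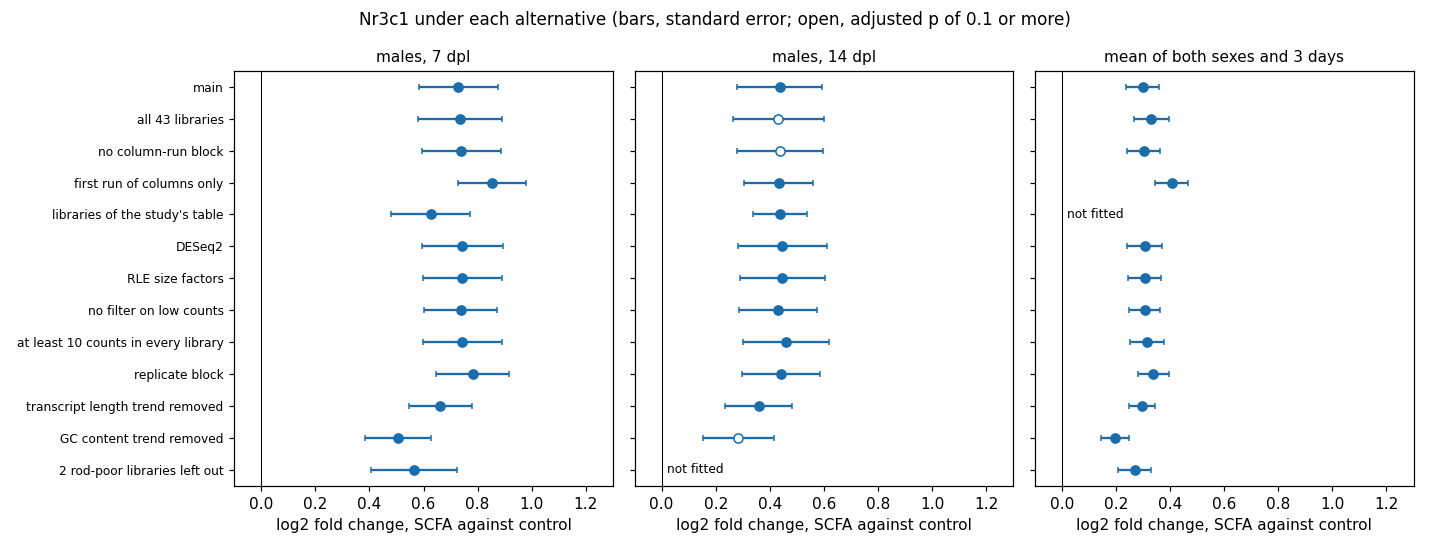
Log2 fold change of Nr3c1 with SCFA (horizontal axis) in males at 7 dpl, males at 14 dpl and over both sexes and 3 days, for the fit reported here (main) and for each alternative. Bars are standard errors, and open points have an adjusted p of 0.1 or more. All points lie above 0, and among these settings open points appear only for males at 14 dpl.

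Other parts of the receptor machinery were read from a list of 12 genes, chosen with earlier results of these data known. In males at 7 dpl 3 of the 12 rose, where 24.1% of all genes passed in either direction. Ptges3, the p23 co-chaperone of Hsp90, rose from a mean of 154 to 241 CPM (log2 0.90 ± 0.16, adjusted p = 0.000369), the coactivator Ncoa2 rose by 0.56 ± 0.15, and the mineralocorticoid receptor Nr3c2 rose by 0.28 ± 0.12. The median log2 difference of the list was 0.18, against -0.03 over all genes tested. Without the 2 rod-poor libraries Ptges3 passed (0.67, adjusted p = 0.0445), and Ncoa2 (0.38, adjusted p = 0.232) and Nr3c2 (0.20, adjusted p = 0.461) did not. In males at 14 dpl 1 of the 12 rose and 1 fell, against 11.4% of all genes that passed. Ncoa2 rose by 0.58 ± 0.17 and the co-chaperone Fkbp4 fell by 0.43 ± 0.14. Over all groups 2 of the 12 rose (Ptges3, 0.37 ± 0.07, and Ncoa2, 0.23 ± 0.07), and Fkbp4 fell by 0.14 ± 0.06, against 31.9% of all genes that passed. Without the rod-poor pair Fkbp4 did not pass there (adjusted p = 0.180). Between control males and females at 14 dpl 3 of the 12 were lower in males, where 7.64% of all genes passed in either direction. These were Ncoa2 (-0.81 ± 0.18), Ptges3 (-0.56 ± 0.18) and the coactivator Ncoa1 (-0.44 ± 0.14). The group means of Ptges3 were close, at 155.0 CPM in males and 166.5 CPM in females. Its fitted difference depends on the run term, which for Ptges3 was -0.82 ± 0.09 (second against first run). Of the 3 female libraries 2 are of the second run, and all male ones are of the first.

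Of the 5 target genes none passed in any single comparison of SCFA with control. Fkbp5 in males at 7 dpl stood at 35.8, 42.02 and 41.3 CPM in controls and at 27.8, 34.0, 31.2, 33.0 and 36.7 CPM with SCFA. The groups overlapped only in that 1 SCFA library lay above 1 control library, and the difference of -0.37 ± 0.17 did not pass (adjusted p = 0.141). In males at 3 dpl the 4 controls (33.8, 40.5, 33.9 and 36.7 CPM) lay above the 3 SCFA libraries (24.4, 33.3 and 30.4 CPM), with a log2 difference of -0.34 ± 0.18 (adjusted p = 0.459). At 14 dpl in males 1 SCFA library, replicate 2, had the highest Fkbp5 level of all (48.9 CPM), where the other SCFA libraries had 23.9 and 25.8 CPM and the controls 44.9, 34.5 and 38.9 CPM. Without that library the male difference at 14 dpl was -0.67 (adjusted p = 0.0188), and with it -0.26 ± 0.19 (adjusted p = 0.439). In females at 3 dpl Fkbp5 with SCFA split by column run, at 25.4, 24.7 and 27.1 CPM in the first and 41.4 and 42.1 CPM in the second, against 32.8, 39.6 and 35.1 CPM in controls, all of the first run.

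**Figure D4:**
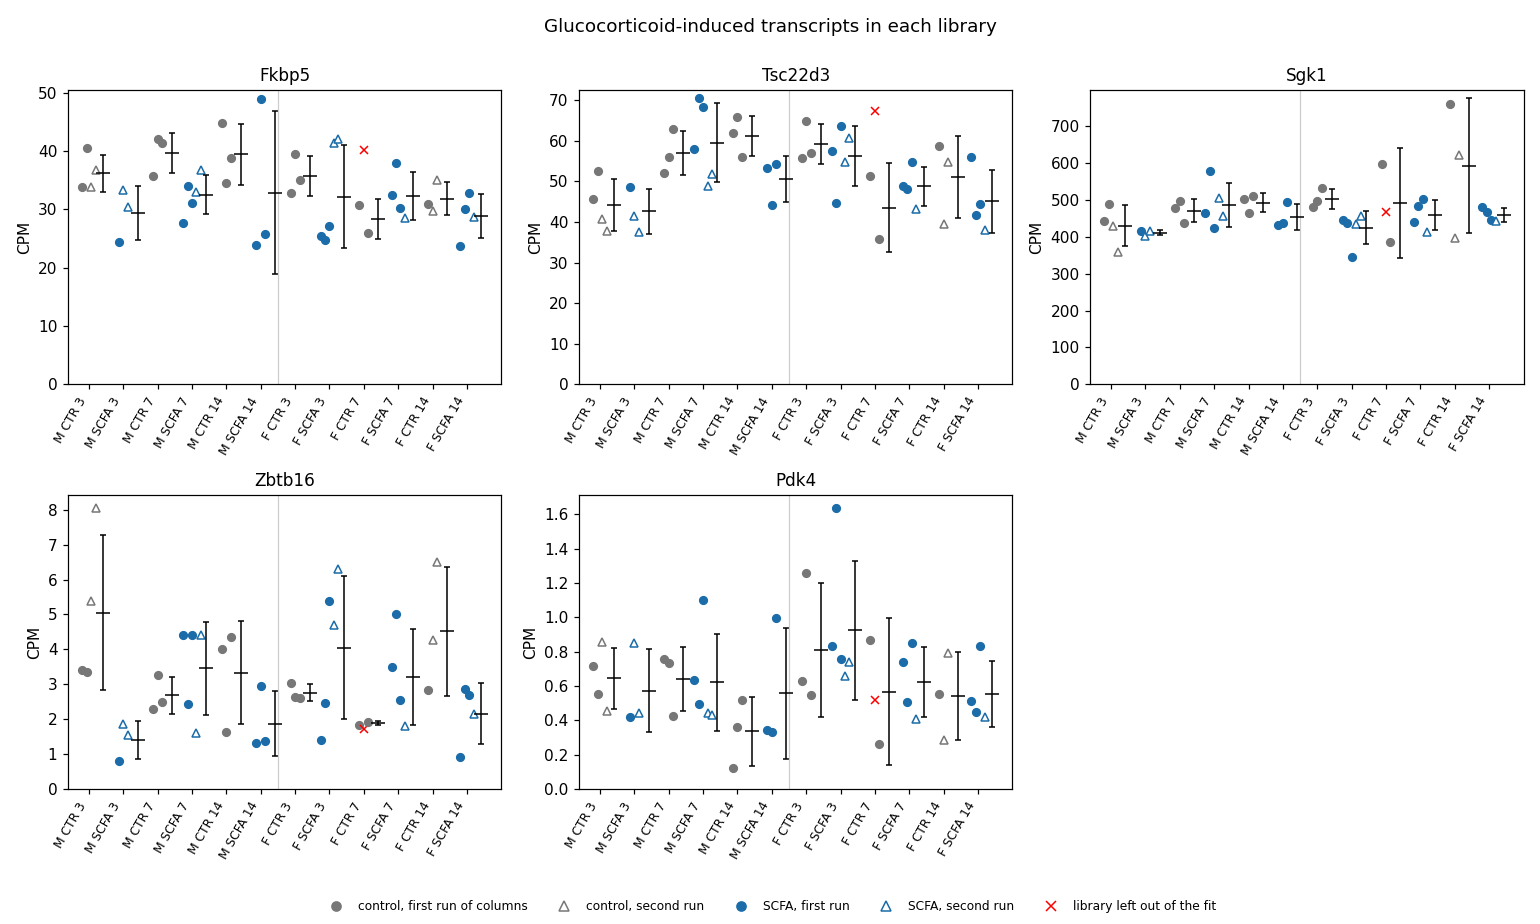
Levels in CPM of Fkbp5, Tsc22d3, Sgk1, Zbtb16 and Pdk4 in each library, by group (M, male; F, female; CTR, control; the number is dpl); vertical axes start at 0 and differ between panels. Filled circles are first-run and open triangles second-run libraries, black bars give mean ± SD, and the red cross is the library left out. Zbtb16 in males at 3 dpl lies lower with SCFA than in controls without overlap, and Fkbp5 in males at 14 dpl shows 1 SCFA library far above the others of its group.

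Tsc22d3 and Sgk1 varied little. Tsc22d3 ranged from 35.7 to 70.5 CPM over all libraries, and its log2 difference with SCFA lay between -0.27 and 0.21 in the 6 comparisons. In males at 14 dpl its controls (62.0, 65.8 and 55.9 CPM) lay above the SCFA libraries (53.2, 44.1 and 54.3 CPM), without a call (-0.27 ± 0.14, adjusted p = 0.246). For Sgk1 the log2 differences lay between -0.40 and 0.09. The most negative was in females at 14 dpl, where the controls had 760, 398 and 622 CPM and the SCFA libraries 482, 467, 445 and 444 CPM. The controls spread on both sides of the SCFA group there, and the adjusted p was 1.0. Its highest level of all libraries, 760 CPM, was in replicate 1 of those controls.

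Zbtb16 showed the largest log2 difference of any member in the 6 comparisons of SCFA with control. In males at 3 dpl the 4 controls had 3.42, 3.34, 5.39 and 8.05 CPM, and the 3 SCFA libraries 0.799, 1.86 and 1.56 CPM, so that the highest SCFA library lay below the lowest control. The log2 difference was -1.90 ± 0.46, and its adjusted p of 0.122 missed the threshold in edgeR. DESeq2 gave 0.00954 for the same libraries and design, and 1 member passed there. The only member with an unadjusted p under 0.05 in this comparison was Zbtb16. In females at 3 dpl the levels were 3.03, 2.63 and 2.61 CPM in controls and 1.41, 2.45, 5.38, 4.71 and 6.30 CPM with SCFA, on both sides of the controls. Male minus female, the response differed by -2.25 ± 0.62 (adjusted p = 0.192 in edgeR and 0.0554 in DESeq2). Pdk4 had 2 to 22 counts in a library, and its log2 differences with SCFA, from -0.12 to 0.73, all had standard errors of 0.45 or more, so a change of moderate size was not detectable at this depth.

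A list of 22 other glucocorticoid-induced genes gave a wider view of the target program. In males at 7 dpl 3 rose and 2 fell, so that 5 of 22 passed against 24.1% of all genes, a like share. Glul rose as above, Anxa1, which encodes the anti-inflammatory annexin A1, rose from a mean of 27.1 to 45.5 CPM (log2 1.01 ± 0.27, adjusted p = 0.00853), and Bcl6, a transcriptional repressor, rose by 0.34 ± 0.12. Lcn2, the iron-siderophore binder lipocalin 2, fell from a mean of 17.6 to 7.24 CPM (log2 -1.32 ± 0.31), and Arl4d fell by 0.51 ± 0.20. Without the 2 rod-poor libraries Glul and Lcn2 (-1.21, adjusted p = 0.0753) passed, and Anxa1 (0.67, adjusted p = 0.246), Bcl6 (0.24, adjusted p = 0.388) and Arl4d (-0.27, adjusted p = 0.562) did not. In males at 14 dpl 4 fell and none rose, against 11.4% of all genes that passed: Errfi1 (-0.58 ± 0.11), Dusp1, a MAP kinase phosphatase (-1.07 ± 0.29), Txnip (-0.76 ± 0.20) and the clock gene Per1 (-0.40 ± 0.15). In females at 3 dpl Cdkn1c, Glul and Anxa1 rose (1.11 ± 0.31, 0.63 ± 0.19 and 0.88 ± 0.27), but this rests on the lens-rich library: without it 1.11% of all genes passed and none of the 3 did (0.27, 0.64 and 0.56, adjusted p = 0.360, 0.116 and 0.240). Over both sexes and the 3 days 2 of the 22 rose (Anxa1 and Glul) and 9 fell, led by Per1 (-0.37 ± 0.06, adjusted p = 2.38e-05) and Dusp1 (-0.65 ± 0.11, adjusted p = 6.88e-05), followed by Arl4d (-0.37 ± 0.09) and Zfp36, which marks inflammatory mRNAs for decay (-0.42 ± 0.10). These 11 of 22 stand against 31.9% of all genes. The list's median log2 difference there was -0.13, and -0.0001 over all genes tested. Since the list was chosen with earlier results of these data known, its share and median describe it and do not test the target program. All 11 still passed without the lens-rich library, and all but Lcn2 (adjusted p = 0.106) without the 2 rod-poor ones. Glul is also among the Müller glia markers.

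Pyruvate dehydrogenase control beside Pdk4 was read from 11 genes. In males at 7 dpl Pdp1, the phosphatase that opposes the kinases, rose from a mean of 33.0 to 52.9 CPM (log2 0.84 ± 0.18, adjusted p = 0.00159), Pdk2 rose by 0.30 ± 0.10, and Ppard fell by 0.35 ± 0.13. None of these 3 passed without the 2 rod-poor libraries (0.41, 0.14 and -0.20, adjusted p = 0.188, 0.511 and 0.491). In females at 3 dpl Pdk2 rose by 0.30 ± 0.10, and it did not pass without the lens-rich library (adjusted p = 0.145). None of the 11 passed in males at 3 or 14 dpl or in females at 7 or 14 dpl. Over all groups 2 rose (Pdp1 and Pdk2) and 2 fell (Ppard and Cpt1a), 4 of 11 against 31.9% of all genes, and without the rod-poor pair Ppard and Cpt1a did not pass (adjusted p = 0.132 and 0.150).

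No metallothionein passed in a single comparison of SCFA with control, although several male groups did not overlap. In males at 7 dpl Mt1 had 211, 230 and 269 CPM in controls and 209, 155, 207, 91.8 and 119 CPM with SCFA. All SCFA libraries lay below all controls, the 2 lowest being of the second run, and with the run in the fit the difference was -0.32 ± 0.19 (adjusted p = 0.252). At 14 dpl all male libraries were of the first run, and Mt1 had 174, 151 and 181 CPM in controls against 130, 125 and 116 CPM with SCFA (-0.45 ± 0.21, adjusted p = 0.188). Mt3 in the same libraries had 41.3, 47.1 and 45.4 CPM against 35.0, 34.4 and 32.5 CPM (-0.39 ± 0.23, adjusted p = 0.332). Mt2 had 1.54, 1.03 and 1.04 CPM against 0.863, 0.555 and 0.579 CPM (-0.85 ± 0.40, adjusted p = 0.202). All 3 genes were thus lower in each SCFA library than in each control there, although none passed, where 11.4% of all genes did. How many of all genes separate without overlap in these 6 libraries was not counted. Mt1 and Mt3 also varied together within groups (r = 0.81), so they do not count as separate observations. When these 6 libraries were fitted alone, Mt1 and Mt3 passed (adjusted p = 0.0184 and 0.0258).

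**Figure D5:**
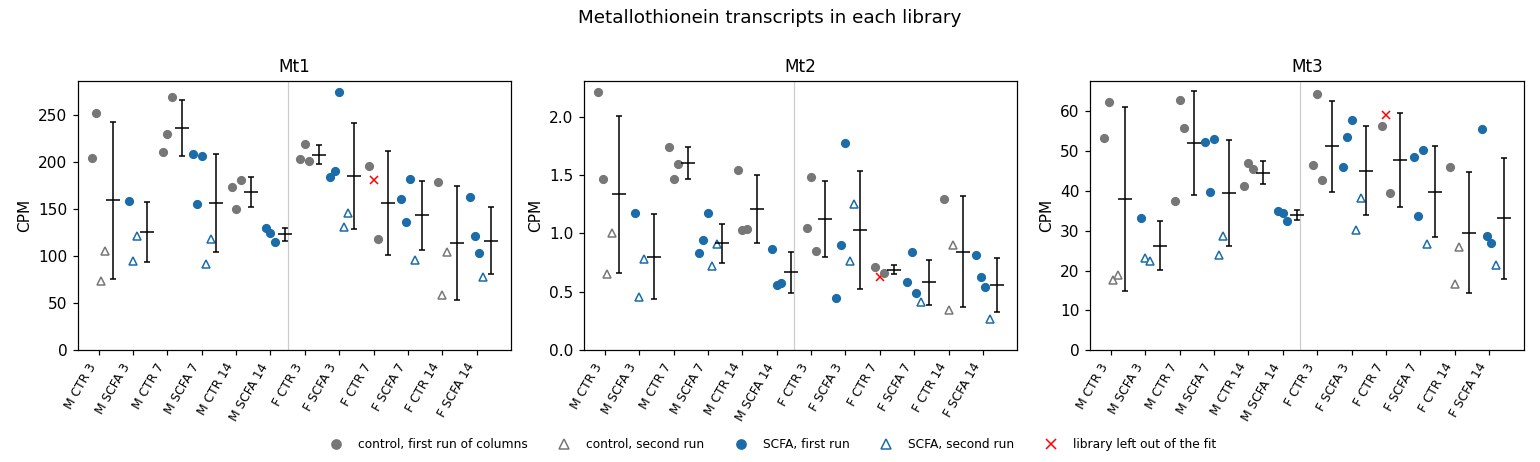
Levels in CPM of Mt1, Mt2 and Mt3 in each library, by group (M, male; F, female; CTR, control; the number is dpl); vertical axes start at 0 and differ between panels. Filled circles are first-run and open triangles second-run libraries, black bars give mean ± SD, and the red cross is the library left out. Open triangles of Mt1 and Mt3 lie below the filled circles in every group that has both.

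Mt2, the metallothionein that passed over all groups, did not pass in males at 7 dpl, although its levels did not overlap, at 1.74, 1.47 and 1.60 CPM in controls and 0.829, 0.942, 1.17, 0.724 and 0.913 CPM with SCFA (-0.55 ± 0.35, adjusted p = 0.296). These levels are 26 to 32 counts against 13 to 19 counts. In females Mt2 overlapped between the groups at each day. Pigment epithelium markers were also lower in male SCFA libraries. Their sum over 5 genes was 432 to 524 CPM in male controls at 7 dpl and 164 to 387 CPM with SCFA, and 236 to 482 CPM against 114 to 193 CPM at 14 dpl. With the column run in the fit their median log2 difference was 0.07 at 7 dpl, where 0 of 5 passed, and -1.03 at 14 dpl, where Rpe65 fell (-1.60 ± 0.56). Of all genes 24.1% passed in males at 7 dpl and 11.4% at 14 dpl. Between the runs 4 of the 5 fell in the second, where 53.1% of all genes passed in either direction. The second run holds 2 of the 5 SCFA libraries at 7 dpl and no control. The part of these cells in the Mt2 difference was not tested.

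The column run separated the metallothioneins by more than the mean SCFA effect did. For Mt2 the SCFA differences at 14 dpl in males (-0.85) and in females (-0.84), which did not pass, were larger in size than the run difference. Second-run libraries were lower by 0.85 ± 0.10 in Mt1 (adjusted p = 5.93e-08), by 0.90 ± 0.12 in Mt3 (adjusted p = 1.95e-07) and by 0.66 ± 0.20 in Mt2 (adjusted p = 0.00657) on the log2 scale, and in all 7 groups that hold both runs each second-run library lay below each first-run library for Mt1 and for Mt3. Over all libraries Mt3 spanned 27.0 to 64.3 CPM in the first run and 16.5 to 38.2 CPM in the second. Tsc22d3 fell by 0.23 ± 0.07 and Fkbp5 rose by 0.19 ± 0.09 between the runs, and Nr3c1 differed by 0.04 ± 0.08. Of the 9 members 5 passed, where 53.1% of all genes did, a like share. Fkbp5 kept its call in 22 of 42 fits that left out 1 library, and in only 1 of the 10 other alternatives, the one without the low-count filter (adjusted p = 0.0461). With a replicate block it differed by 0.03 (adjusted p = 0.917). The number of libraries of each run differs between groups, so a metallothionein level averaged over a group depends on its mix of runs.

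The study's own table of libraries for males at 7 dpl pairs the 3 controls with 3 of the 5 SCFA libraries, 2 of them of the second run. When those 6 were fitted alone, without the run, 4 members passed, namely Nr3c1 (0.63, adjusted p = 0.0285), Mt1 (-0.95, adjusted p = 0.0163), Mt3 (-0.75, adjusted p = 0.0461) and Mt2 (-0.88, adjusted p = 0.0894). In the first run of columns alone, with all groups, 6 members passed over both sexes and the 3 days, adding Sgk1 (-0.21), Mt1 (-0.28) and Mt3 (-0.28) to Nr3c1, Fkbp5 and Mt2. These values keep the sign of the fit over both runs.

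Metal handling beyond the metallothioneins was read from 12 genes, of which 11 were tested. Over all groups 3 rose and 1 fell with SCFA: the zinc exporter Slc30a1 rose by 0.23 ± 0.05 (adjusted p = 0.00129), the zinc importer Slc39a10 by 0.18 ± 0.07 and Gclc, of glutathione synthesis, by 0.15 ± 0.06, while Mtf1, the metal-responsive factor that induces Mt1 and Mt2, fell by 0.16 ± 0.05 (adjusted p = 0.0190). These 4 of 11 stand against 31.9% of all genes, and without the rod-poor pair Slc39a10 and Gclc did not pass (adjusted p = 0.148 and 0.131). Slc30a1 is, like Mt1 and Mt2, a target of MTF1. Over all groups it rose, while Mt2 fell and Mt1 did not pass (adjusted p = 0.168, edgeR). The part of MTF1 in these differences was not tested. In males at 7 dpl Slc39a10 rose by 0.56 ± 0.17 and Slc30a1 by 0.31 ± 0.12, and neither passed without those 2 libraries (adjusted p = 0.419 and 0.189). In females at 3 dpl Hmox1, the haem oxygenase, rose by 3.17 ± 0.77 and Mtf1 fell by 0.40 ± 0.12, and neither passed without the lens-rich library (0.31 and -0.37, adjusted p = 0.683 and 0.154). Without that library the ferritin gene Fth1 also passed over all groups (-0.18, adjusted p = 0.0283).

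No member passed between days after the lesion. Between 7 and 3 dpl and between 14 and 7 dpl, 0 of 9 passed in edgeR in control and in SCFA retinas, against 0.0% and 0.0% of all genes in controls and 0.0% and 0.0913% with SCFA. At an unadjusted p under 0.05 there were 0 and 1 members in controls and 1 and 4 with SCFA, and DESeq2 called 0 and 0 in controls and 0 and 1 with SCFA. All 9 had a negative log2 difference from 7 to 14 dpl with SCFA, Mt1 with the smallest p (-0.45 ± 0.13, adjusted p = 0.129). The change of the SCFA response between days gave 0 of 9 members in edgeR both times, against 0.0% and 0.00537% of all genes, with 2 and 2 members at an unadjusted p under 0.05 and 0 and 1 called by DESeq2.

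No member passed between control males and females at 3 or 7 dpl (0 of 9 in edgeR and 0 in DESeq2, against 0.0483% and 0.0429% of all genes, with 1 and 4 members at an unadjusted p under 0.05). Over both treatments and the 3 days 0 of 9 passed (1.88% of all genes, with 2 members at an unadjusted p under 0.05 and 0 in DESeq2). Mt2 had the largest mean sex difference, at 0.41 ± 0.16 higher in males (adjusted p = 0.189).

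Within groups, some members varied together from library to library. Of the 36 pairs, residual log2 CPM after removal of group and column run gave 2 pairs with a Benjamini-Hochberg adjusted p under 0.05 for Pearson's r in a permutation test within groups over 42 libraries. Mt1 and Mt3 had r = 0.81 and rho = 0.80 (permutation p = 4e-05 and 0.00014, adjusted 0.00144 and 0.00504), and r = 0.78 without the 2 libraries farthest from the median of Mt1. Fkbp5 and Zbtb16 had r = 0.57 and rho = 0.55 (permutation p = 0.00217 and 0.00388, adjusted 0.0391 and 0.0466), and r = 0.54 without the 2 farthest libraries. Tsc22d3 and Mt3 passed for rho alone (rho = 0.58, adjusted permutation p = 0.0466, and r = 0.54, adjusted permutation p = 0.0787). Nr3c1 had negative r with Mt3 (-0.51, adjusted p = 0.486 by permutation) and with Fkbp5 (-0.25, adjusted p = 0.486 by permutation), neither past the threshold.

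Among the other 18619 tested genes, those whose residual pattern over the 42 libraries was most like Fkbp5 were Selenbp1 (r = 0.75), Slc25a12 (0.73), Bicdl1 (0.71), Fbxo9 (0.70) and Sptlc1 (0.67). For Mt2 they were the non-coding A930031H19Rik (0.66), Cdk5 (0.65), Zfyve19 (0.65), Nnt (0.65) and Nrgn (0.65). These are the highest of many correlations, the libraries share depth and composition, and they are given as a description.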

How the data were processed

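RNA was sequenced from lasered retinas, and the authors deposited 1 table of raw read counts per gene for the 43 libraries. Aligner, counter, strand setting and the handling of reads that match several genes are not given in the sources used here; the submitters' processing notes name mm10 and DESeq2. Genes were named by GENCODE M21, which gave a symbol to 54495 of 54532 genes. Groups come from the sample titles, since the treatment field reads control in all 43 samples. CPM used TMM-adjusted library sizes. Counts were fitted with edgeR 4.0.16 in R 4.3.3 (TMM, filterByExpr, quasi-likelihood test, Benjamini-Hochberg over 18628 genes) with group and column run, on 42 libraries. A gene passed at an adjusted p under 0.1, the study's threshold. Totals of 14826957 to 21507527 counts set the precision, for counting error only. DESeq2 1.42.0 was an alternative. On simulated counts for males at 7 dpl, edgeR recovered 99.5% of 200 genes changed by 2 on the log2 scale (18223 genes), with 19 false calls. The changed genes were drawn above a level that Zbtb16, Mt2 and Pdk4 do not reach. That change is also larger than any member difference there (at most 0.73), so the rate does not give the power for members. Correlations used 100000 permutations. Fkbp5 and Mt2 were chosen for the genes of most alike pattern, 5 each. From each gene list the text names up to 4 genes that passed, by smallest adjusted p, and a few others, to name small counts, after their values were seen. Members and gene lists were chosen with earlier results of these data known, and the libraries of the study's own comparisons were taken from its description. Some genes of these lists are not reported here.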

Additional observations from a re-analysis of the deposited data

Results flagged for a closer look

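Within groups of 4 or 5 libraries, 45 group and gene combinations were tested for a library far from the rest, of which chance flags about 1 in 20. Sgk1 stood at 346.5 CPM in female SCFA 3 dpl replicate 3, below the other 4 libraries of that group at 434.5 to 457.0 CPM. Pdk4 stood at 1.636 CPM in female SCFA 3 dpl replicate 2, the library rich in lens transcripts, above the others at 0.657 to 0.832 CPM. The Y-linked transcript Ddx3y was at 16.01 CPM in replicate 2 of the female controls at 7 dpl, as labelled, and at 0 in the other female libraries. Nr3c1 was 40.6 CPM there, and including that library changed the log2 difference of Nr3c1 in females at 7 dpl from 0.31 to 0.49 (adjusted p = 0.141 by edgeR).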

How the results depend on the processing

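None of the 11 member results that passed in the main fit reversed direction under the alternatives run. The directions of results that did not pass were not compared. The values below count members of 9 that passed. With an adjusted p under 0.05, 0 passed in males at 14 dpl and 0 between control sexes at 14 dpl. In males at 14 dpl 0 passed with all 43 libraries and 0 without the column run, and 2 without a low-count filter. In the first run alone 2 passed in females at 3 dpl, 6 in the mean SCFA effect and 0 between control sexes at 14 dpl. DESeq2 gave 1 in males at 3 dpl, 1 for the sex difference in response at 3 dpl, 1 for SCFA at 14 against 7 dpl and 1 for the response at 14 minus 7 dpl. Without the filter the same comparisons gave 1, 1, 3 and 1, the response at 7 minus 3 dpl gave 1, and Mt2 no longer passed in the mean SCFA effect (adjusted p = 0.112). In that mean Fkbp5 did not pass without the column run, with a GC trend removed or at 0.05. With at least 10 counts in every library 1 passed in males at 3 dpl, 1 for SCFA at 14 against 7 dpl and 3 for the column run. In the libraries of the study's own comparisons, fitted apart, 4 passed in males at 7 dpl, 3 in males at 14 dpl, 1 in females at 14 dpl (Zbtb16), 3 between control sexes at 7 dpl and 0 at 14 dpl. Of the alternatives chosen after seeing the data, removing a trend over transcript length gave 2 in males at 14 dpl, 1 in females at 3 dpl and 3 for the column run, and removing one over GC content gave 0 in males at 14 dpl and 0 between control sexes at 14 dpl. Leaving out the 2 rod-poor libraries of males with SCFA at 7 dpl kept Nr3c1 there, while all genes called fell to 781 (4.22%). The cause of these changes was not tested.

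Over all sex and day sets replicate numbers did not pair the libraries. Same-numbered control and SCFA libraries had residual correlations of -0.184 to 0.161 (mean 0.016, 17 pairs), against a mean of -0.005 for other pairs. In females at 3 dpl all 3 same-numbered pairs correlated above 0.1, but pairs with different numbers there reached 0.217. With a replicate block, 1 passed in males at 3 dpl (Zbtb16), 2 in males at 7 dpl, 1 in females at 3 dpl (Nr3c1), 1 for the sex difference in response at 3 dpl and 0 between control sexes at 14 dpl.

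Leaving out 1 library at a time gave 1 in males at 7 dpl, 0 to 1 in males at 14 dpl, 2 to 5 in the mean SCFA effect, 0 to 2 for SCFA at 14 against 7 dpl, 0 to 1 for the sex difference in response at 3 dpl, 0 to 1 between control sexes at 14 dpl and 4 to 6 for the column run, and 0 elsewhere. Depth limits Pdk4 (2 to 22 counts) and Mt2 (5 to 40 counts), with 1 library at or under 3 counts of Pdk4.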
